A study of Schizosaccharomyces pombe with 4 samples.

Results

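The 10 genes described here encode the pheromone signalling cascade of fission yeast (Schizosaccharomyces pombe) and Ste11, with nearby adaptor and fusion genes. They were taken by symbol from the 7092 genes of the authors' deposited table, and all 10 were found: gpa1, rgs1, ste4, byr2, byr1, spk1, ste7, ste11, fus1 and rep1. RNA was sequenced from 4 libraries of homothallic (h90) cells that the labels describe as ade6, leu1 and ura4 mutant, with pcr1 replaced by ura4+. Of these libraries, 2 were labelled with the empty plasmid pREP41 ("vector") and 2 with pREP41 carrying Atf1 ("Atf1"). In both groups cells grew overnight in minimal medium with 20 µM thiamine, which represses the nmt1-type promoter of pREP41, and then for 24 h without it, at 30 °C throughout. By these labels the Δpcr1 deletion is thus shared by the control, and no group labelled as having pcr1 is in the series. Values of pcr1 and ura4 RNA, given below, do not all follow this genotype. Whether the libraries of a group are separate cultures is not said in the labels.

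In fission yeast, each mating type secretes a peptide pheromone that binds a receptor on the opposite type. Both receptors act through the G protein alpha subunit Gpa1, and the signal runs with Ras1 through the kinases Byr2, Byr1 and Spk1. Nutrient starvation and this cascade converge on Ste11, an HMG-box transcription factor that turns on mating and early meiosis genes by binding a DNA element called the TR box. Atf1 and Pcr1 are bZIP factors that bind the cyclic AMP response element (CRE), and in fission yeast they are known to be needed for normal ste11 expression.

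The TR-box core was found in the promoters of most of these genes, and the matches are shown because Ste11, itself one of the 10, is known to bind this element. Promoter windows ran from 250 bases before to 50 after the annotated gene start in the RefSeq assembly ASM294v3. The letters searched were TTCTTTG for the TR-box core and TGACGT for the CRE core, on both strands, and the 2 motifs share no overlapping match here. The TR-box core was in 7 of 10 windows, against 9.94% of 5112 protein-coding promoters. With T required as the next base, it was in 6 of 10 windows, against 3.76% of promoters. The CRE core was in 1 of 10, against 5.91%. Capitals mark the core, and each stretch is written 5′ to 3′ on the gene's strand, so a core on the other strand reads as its reverse complement:
ste11 (chrII:3983241-3983263, plus strand): agttgaatTTCTTTGtttgattt
ste7 (chrI:453638-453660, minus strand): tgttgattTTCTTTGtttgaaaa
ste4 (chrI:1296583-1296605, minus strand): agtatgctTTCTTTGttataaaa
rgs1 (chrI:679710-679732, plus strand): ttaatgatTTCTTTGtttaaaag
spk1 (chrI:3001554-3001576, minus strand): aagaaactTTCTTTGttattgta
rep1 (chrII:2976577-2976599, plus strand): aagcatttTTCTTTGtttacatc
gpa1 (chrII:2329722-2329744, plus strand): atctcaacTTCTTTGacggctta
byr2 (chrII:1742381-1742402, minus strand, CRE core): atattgttACGTCAaagagcac

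The core began 127 bases upstream of the start in ste11, 91 in ste7 and 54 in ste4. The rgs1 window held 3 cores, that of spk1 held 4 and that of rep1 held 2. In gpa1 the single core lay 21 bases into the transcript and was not followed by T. The windows of byr1, byr2 and fus1 held no TR-box core. A match is a run of letters and not evidence of binding, and these windows leave out the rest of each upstream region. The annotated ste11 transcript has a leader of 2210 bases before its coding sequence, the longest of the 10, and most of it lies outside the window.

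**Figure D1:**
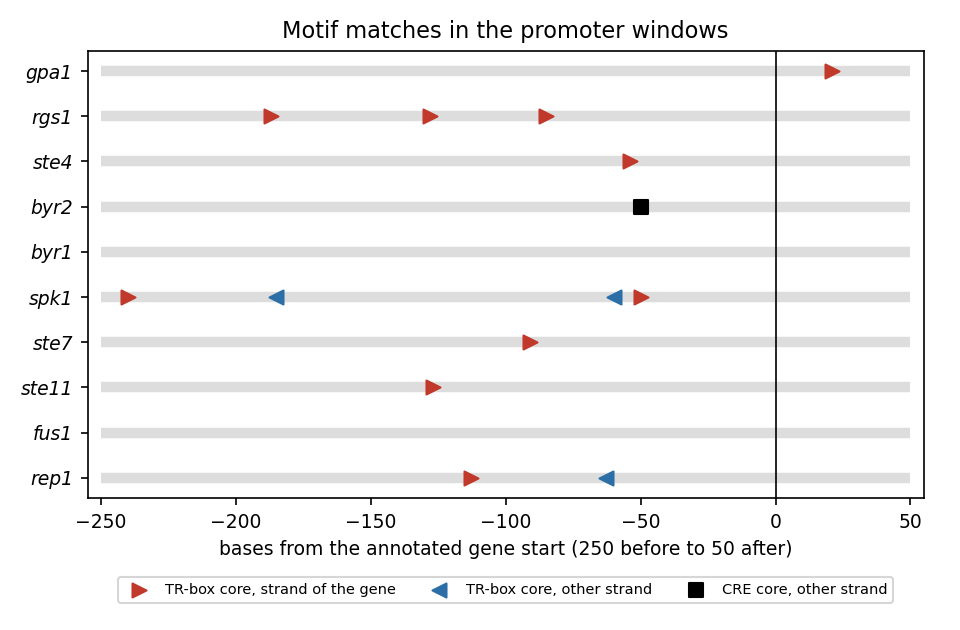
Matches to the TR-box core and the CRE core in the promoter window of each of the 10 genes, by distance in bases from the annotated gene start (vertical line). Triangles point along the strand of the TR-box core, and 7 of the 10 windows hold at least 1, with spk1 (4) and rgs1 (3) holding the most.

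RNA levels are the authors' FPKM (fragments scaled to transcript length and sequencing depth), pooled to 1 value for each group and gene, which leaves no spread between libraries to report. A gene is said to rise or fall where the authors' deposited table gives a q-value under 0.05. Differences are log2(FPKM + 1), Atf1 label minus vector label, a scale that understates changes of weakly expressed genes. All 10 genes passed the filter of status OK and a mean of at least 1 FPKM, as did 6219 genes in all.

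The largest log2 differences were those of ste7, ste11 and, in the other direction, ste4, and only ste7 was called. The level of ste7 rose from 7.07 FPKM under the vector label to 31.1 FPKM under the Atf1 label, and ste11 stood at 7.78 and 28.9 FPKM without passing the authors' threshold. The kinase genes byr2, byr1 and spk1, the G protein genes gpa1 and rgs1, and fus1 and rep1 all lay within 0.5 of no change on the log2 scale. This holds only on the authors' scaling. With both groups scaled to equal FPKM totals, the differences of these genes ran from -1.09 (byr2) to -0.53 (spk1). The adaptor gene ste4 went the other way by value, from 43.1 to 15.8 FPKM, without a call. By the q-values of the authors' deposited table, 1 of the 10 genes was called higher, where 1.82% of the 6219 tested genes were, and 0 were called lower, where 0.129% were. At an unadjusted p under 0.05 in that table, 2 genes were higher (ste7 and ste11), with 6.8% of tested genes, and 1 was lower (ste4), with 4.04%.

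**Figure D2:**
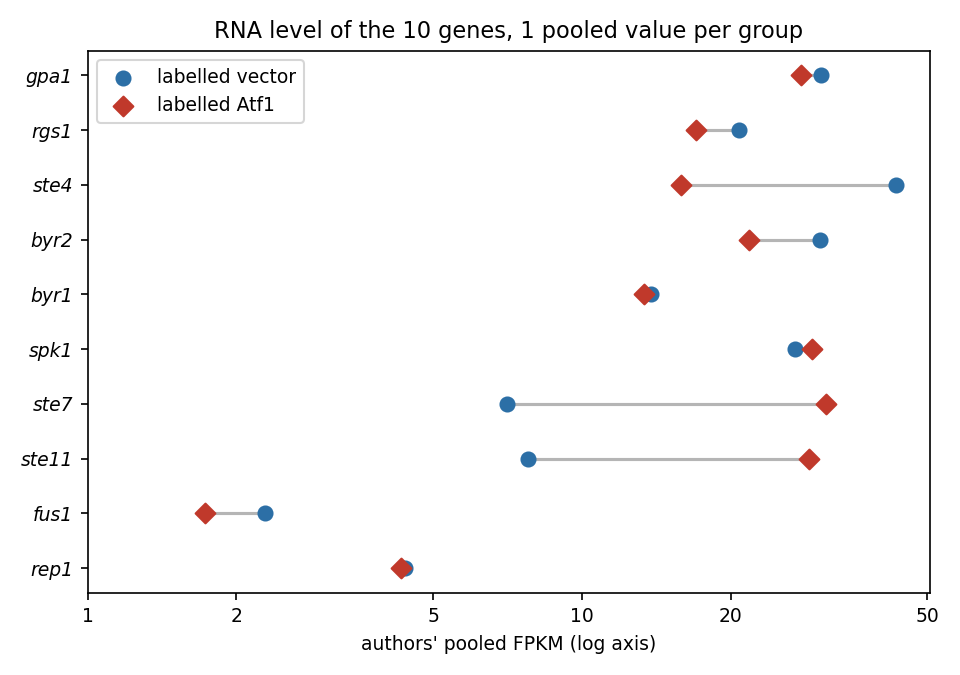
The authors' pooled FPKM (log axis) of the 10 genes, with 1 point for each group and a line joining the groups. The points of ste7 (7.07 and 31.1 FPKM) and ste11 (7.78 and 28.9 FPKM) lie far apart under the Atf1 label higher, those of ste4 (43.1 and 15.8 FPKM) under the vector label higher, and those of byr1 and rep1 nearly coincide.

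The genotype genes bear on what the labels mean for these values. Levels of atf1 were 54.4 FPKM under the Atf1 label and 60.9 FPKM under the vector label, so the RNA named in the label was not higher. RNA of pcr1, deleted per the labels, was read at 66.4 and 35.8 FPKM, and the marker ura4 was listed at 0 and at 124.8 FPKM. Values of pcr1 in both groups, and of ura4 under the Atf1 label, do not follow the labelled genotype. Whether both groups carried the deletion, or shared a strain background, is not known from these data. The directions given here thus compare the 2 sets of labels, not known levels of Atf1 RNA or known genotypes. The libraries also differed beyond single genes: FPKM summed to 1321551 and 835070, and 46 of 49 structural RNAs, which lack poly(A) tails, were above 0, with a median log2 difference of 2.72. Their part in the results below was not tested.

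On the authors' scaling, RNA of the receptor-coupled G protein was at similar levels under both labels. The alpha subunit gene gpa1 (SPBC24C6.06, chromosome II 2327364-2331890) stood at 27.7 FPKM under the Atf1 label and 30.4 FPKM under the vector label, a log2 difference of -0.13. Its regulator gene rgs1 (SPAC22F3.12c, chromosome I 678571-681890), whose product speeds GTP hydrolysis by Gpa1 and so damps the signal, stood at 17.0 and 20.7 FPKM, a log2 difference of -0.27. Neither was called, and both q-values were 0.997 in the authors' deposited table. These positions, and those below, are the authors' Cuffdiff loci on the build ASM294v2, and such a locus can hold several genes.

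The adaptor gene ste4 (SPAC1565.04c, chromosome I 1294072-1296634) encodes a protein that binds Byr2 and helps to activate it. It was the most abundant of the 10 RNAs under the vector label, at 43.1 FPKM, and the seventh under the Atf1 label, at 15.8 FPKM. The level was 2.72-fold higher under the vector label, and only 4.39% of 4965 tested protein-coding genes had a lower log2 difference than its -1.39. The authors' deposited table gives p = 0.0252 and q = 0.494, so it was not called. SPAC1565.03, which overlaps the 3′ end of ste4 by 26 bases on the opposite strand, was also lower by value, at 3.28 and 11.1 FPKM, with q = 0.997 in that table. The RNA SPNCRNA.733, in the same locus and on the strand of ste4, went the other way by value. It stood at 2.93 and 2.17 FPKM, with q = 0.997 in that table.

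On the authors' scaling, RNA of the kinases of the cascade differed little between the labels. The gene byr2 (SPBC1D7.05, chromosome II 1734240-1742504), for the MAP kinase kinase kinase, stood at 21.8 FPKM under the Atf1 label and 30.3 FPKM under the vector label, a log2 difference of -0.45. The gene byr1 (SPAC1D4.13, chromosome I 667815-669749), for the MAP kinase kinase that Byr2 phosphorylates, stood at 13.4 and 13.8 FPKM, a log2 difference of -0.042. The gene spk1 (SPAC31G5.09c, chromosome I 2998749-3001687), for the MAP kinase at the end of the cascade, stood at 29.2 and 27.0 FPKM, a log2 difference of 0.11. The order of levels among the kinases changed only between byr2 and spk1. Of these, byr2 was the higher under the vector label and spk1 under the Atf1 label. The authors' deposited table gives q = 0.997 for each kinase gene, and without a spread this does not show that levels were equal between labels.

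The gene ste7 (SPAC23E2.03c, chromosome I 450860-453603) encodes an arrestin-family protein needed for mating and meiosis. It rose 4.40-fold, to the highest level of the 10 genes under the Atf1 label from the eighth under the vector label. Its log2 difference of 1.99 exceeded that of 96.3% of tested protein-coding genes. The authors' deposited table gives p = 5e-05 and q = 0.00809 for it. This is the lowest p in that table, shared by 75 genes.

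The gene ste11 (SPBC32C12.02, chromosome II 3983312-3987400) stood at 28.9 FPKM under the Atf1 label and 7.78 FPKM under the vector label, a ratio of 3.71. Its log2 difference of 1.77 exceeded that of 95.4% of tested protein-coding genes, close to the position of ste7. In the authors' deposited table p was 0.0007 and q was 0.0608, just above the threshold for a call. With Benjamini-Hochberg adjustment of the authors' p-values over the 6219 genes tested here, its adjusted p was 0.0327, so the call depends on which genes are adjusted over. The order of levels turned with it: ste11 and ste7 lay below gpa1, byr2 and spk1 under the vector label, and beside or above them under the Atf1 label.

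The genes that act at fusion and entry into meiosis were the weakest of the 10. The formin gene fus1 (SPAC20G4.02c, chromosome I 4811984-4817790), which builds the actin focus where mating cells fuse, stood at 1.73 FPKM under the Atf1 label and 2.28 FPKM under the vector label. The gene rep1 (SPBC2D10.06, chromosome II 2976695-2979469), for a zinc finger co-activator of the MBF factor in premeiotic S phase, stood at 4.30 and 4.38 FPKM. Only 2.22% of tested protein-coding genes had a lower level than fus1 under the Atf1 label and 3.28% under the vector label. The authors' deposited table gives q = 0.997 for fus1 and 0.998 for rep1.

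**Figure D3:**
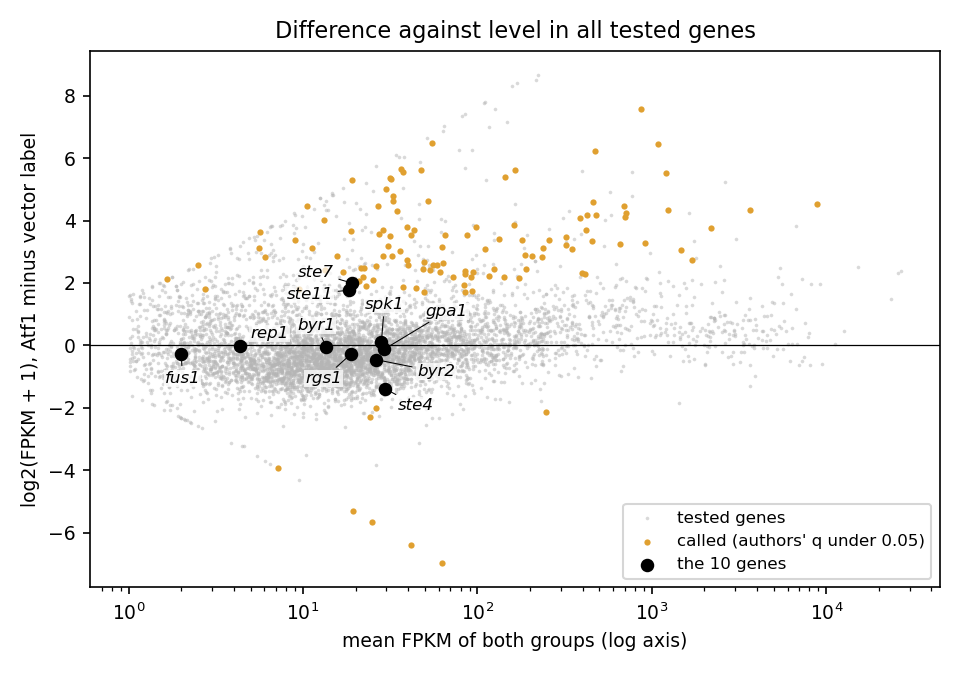
The difference in log2(FPKM + 1), Atf1 label minus vector label, against mean FPKM (log axis) for the 6219 tested genes (grey), those called by the authors (orange) and the 10 genes (black). The points of ste7 (1.99) and ste11 (1.77) lie side by side, ste7 among the called genes and ste11 not called, and the other 8 lie between -1.39 and 0.11.

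Over the 10 genes the median log2 difference was -0.086, with 3 above 0 and 7 below. It was -0.11 over all 6219 tested genes, of which 55.4% were below 0, and -0.22 over 4965 protein-coding ones, of which 60.1% were. The median lay near that of all genes, while single members ranged from -1.39 (ste4) to 1.99 (ste7). With median-of-ratios scaling the median of all tested genes shifted by 0.12 and byr1 and rep1 turned to above 0. With equal FPKM totals it shifted by -0.61 and spk1 turned to below 0, while ste7 (1.38) and ste11 (1.15) stayed above 0.

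Shared loci limit how firmly the values can be read. Only ste7 and ste11 were alone in their Cuffdiff locus, while the other 8 genes shared theirs with up to 3 genes. Among all tested genes, 3.79% of the 1926 alone in a locus were called higher, against 0.932% of the 4293 that shared one. Without genes that share a locus, the median log2 difference of the members left, ste7 and ste11, was 1.88, against -0.039 over all tested genes alone in a locus. As these are the members with the highest differences, this median restates their values and does not describe the set.

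Several of the 10 genes have an RNA on the opposite strand. The library kit keeps strand, but the sources used here do not give whether the authors' counting used it, so reads of such pairs may be mixed. The RNA byr1-antisense-1 (SPNCRNA.674) covers all 1739 bases of byr1, and at 20.1 and 25.2 FPKM it lay above byr1 itself under both labels. The RNA fus1-antisense-1 (SPNCRNA.1026) overlaps fus1 by 3205 bases and stood at 1.79 FPKM under the Atf1 label and 0.153 FPKM under the vector label. It was at about the level of fus1 in the former group and far below it in the latter, and was not called (q = 0.997 in the authors' deposited table). The protein-coding gene ups1 (SPAC31G5.08) overlaps spk1 by 1525 bases and stood at 37.5 and 28.6 FPKM, the same direction by value as spk1. The opposite-strand RNA SPNCRNA.1503 overlaps gpa1 by 1032 bases and stood at 4.05 and 6.63 FPKM, well below gpa1. In ASM294v3, SPNCRNA.6380 and SPNCRNA.6381 overlap ste11 on the opposite strand by 591 and 946 bases. Neither has an entry in the authors' deposited table, so their levels are unknown. Being alone in a Cuffdiff locus thus does not free ste11 of this limit. Opposite-strand RNAs without an entry also overlap byr2, fus1 and rep1.

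**Figure D4:**
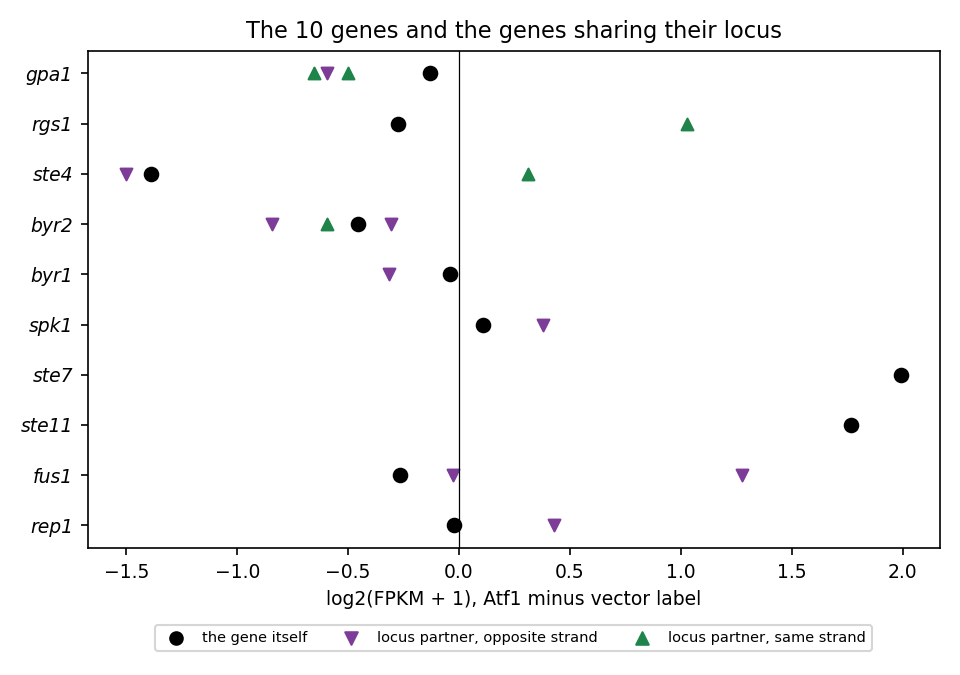
Differences in log2(FPKM + 1), Atf1 label minus vector label, of each of the 10 genes (black) and of the genes with status OK that share its Cuffdiff locus, by strand relative to it. No partner is drawn for ste7 and ste11, which are alone in their locus. The opposite-strand partner of ste4 (-1.50) lies beside ste4 (-1.39), and its same-strand partner (0.31) lies above 0.

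The rest of the pathway was compared in lists by role, 70 distinct tested genes in all. Of these, the authors' deposited table calls 1 higher and 0 lower, against the 1.82% and 0.129% of tested genes above. At an unadjusted p under 0.05 in that table, 4 were higher and 2 lower, where 6.8% and 4.04% of all tested genes were. These shares also stand beside the counts by list below. Their median log2 difference was 0.038.

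Among 15 genes for receptors, pheromones and their handling, 0 were called, with a median log2 difference of -0.20, and 1 (mam2) had an unadjusted p under 0.05. The gene mam2, for the P-factor receptor of M cells, stood at 15.9 FPKM under the Atf1 label and 40.0 FPKM under the vector label (q = 0.523 in the authors' deposited table). The P-cell protease gene sxa1 stood at 293 and 140 FPKM, with q = 0.683 in that table. The P-factor gene map2, in a locus of 2 genes, stood at 2.59 and 49.95 FPKM, with q = 0.997 in that table, so a 19.3-fold ratio came without a call. Homothallic cultures, as both groups are labelled, hold both mating types. In bulk RNA fewer cells of a type and less RNA per cell cannot be told apart. Nor can either be told apart here from a culture that differs from its label. Summed over the 6 of 8 P-cell markers with an entry, levels were 305 and 270 FPKM, of which sxa1 made up the greater part. The other 5 P-cell markers, of which map2 and map3 share a locus with other genes, were set apart from sxa1 after their values were seen. All 5 were lower by value under the Atf1 label and summed to 11.7 and 130 FPKM. Among these, mat2-Pc was listed at 0 under the Atf1 label and stood at 49.6 FPKM under the vector label, and mat2-Pi at 0 and 14.3 FPKM, both called lower (q = 0.00809 in the authors' deposited table). Summed over the 9 of 11 M-cell markers with an entry, levels were 707 and 920 FPKM, with mat1-Mc listed at 0 in both. Of these sums mfm3, in a locus of 4 genes, made up 104 and 361 FPKM (q = 0.997 in that table). By value mfm1, mfm2, mam1 and sxa2 were higher under the Atf1 label, and mfm3, mam2 and mam3 were lower. The weak mat3-Mc had entries in both directions. How reads were assigned among the entries of mat2-Pc, mat2-Pi, mat1-Mc and mat3-Mc is not known here. Their values at 0 are thus not read as the absence of a cell type. The part of these markers in the levels of ste4, ste7 and ste11 was not tested.

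In the branch around Ras1, Cdc42 and the G protein partners, 1 of 15 genes was called, with a median log2 difference of 0.17. The gene git5 rose from 6.06 to 38.7 FPKM (q = 0.00809 in the authors' deposited table). It encodes a G protein beta subunit known for glucose sensing with the alpha subunit Gpa2, and is not known as the partner of Gpa1. At an unadjusted p under 0.05 in that table were also pyp1, for a tyrosine phosphatase of the stress MAP kinase, at 31.5 and 12.1 FPKM, and gnr1, for a beta-subunit-like protein, at 21.8 and 8.17 FPKM. Next by p was cdc42, at 390 FPKM under the Atf1 label and 208 FPKM under the vector label, without a call (q = 0.760 in that table). The gene ras1, whose GTPase activates Byr2, stood at 42.8 and 43.7 FPKM. Its exchange factor gene ste6, itself listed among the genes driven by Ste11, stood at 1.42 and 5.95 FPKM without a call.

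Among 23 regulators of Ste11, 0 were called, with a median log2 difference of 0.19 and 1 gene at an unadjusted p under 0.05. That gene was zfs1, for a zinc finger protein that acts in pheromone signalling, at 26.3 FPKM under the Atf1 label and 12.6 FPKM under the vector label (q = 0.556 in the authors' deposited table). The ste11 repressor gene pac2 stood at 272 and 145 FPKM, in the same direction as ste11 by value and without a call. The zinc finger activator gene rst2 stood at 22.6 and 18.6 FPKM, and pka1, for the kinase that restrains it, at 59.2 and 63.8 FPKM. The kinase gene pat1, whose product inhibits Ste11, stood at 8.94 and 5.26 FPKM. The genes rst2, pka1 and pat1 were picked after their values were seen, and the part of the regulators in the level of ste11 was not tested.

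A list of mating and early meiosis genes, written as Ste11 targets although not every member is a known direct target, was compared last. Of its 23 tested genes, 15 were lower and 8 higher by value under the Atf1 label, or 65.2% lower, near the 60.1% of all tested protein-coding genes that were lower. The median log2 difference was -0.65. The authors' deposited table calls 0 of them, and 2 were lower at an unadjusted p under 0.05, ssm4 and the mam2 gene given above. The gene ssm4, for a meiotic dynactin subunit, stood at 1.23 and 4.26 FPKM, with q = 0.421 in that table. The gene mei2, for the RNA-binding protein that starts meiosis, stood at 14.6 and 15.5 FPKM, without a call. The gene agn2, for a glucanase of the spore sac, stood at 61.9 and 32.4 FPKM, and cfr1, needed for cell fusion, at 19.9 and 37.1 FPKM, without calls. Of the 23 genes 6 were alone in their locus, and over these the median was 0.072, so the sign of the list's median turns with the genes that share a locus.

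**Figure D5:**
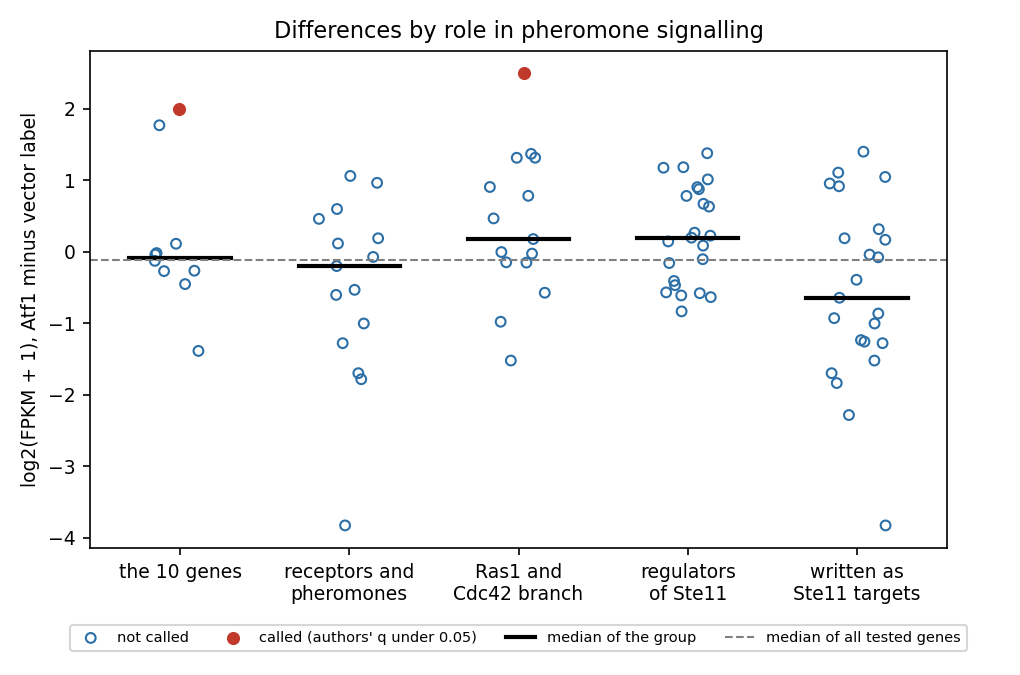
Differences in log2(FPKM + 1), Atf1 label minus vector label, of the 10 genes and of the tested genes of 4 lists by role, with each group's median (black bar) and the median of all 6219 tested genes (dashed, -0.11). Filled points are the only called genes, ste7 (1.99) and git5 (2.49), and a gene in several lists is drawn in each.

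The TR-box core was also counted in the promoters of the other pathway genes, without a test. It was in 7 of 15 windows of the receptor and pheromone list, 2 of 15 of the Ras1 list, 3 of 23 of the regulators and 8 of 26 of the list written as Ste11 targets. Over all protein-coding promoters the share was 9.94%. Among the windows with a core were those of mei2, ste6, map1 and mfm1, and a gene in several lists is counted in each. The last count includes mat1-Mc and mat1-Mi, both listed at 0 FPKM under both labels. Over all 491 tested genes whose window held the core, the median log2 difference was -0.18 and 2.85% were called higher. Over all 4965 tested genes with a window these were -0.22 and 1.71%. A TR-box core was present both in genes that were higher under the Atf1 label (ste7, by value ste11) and in one that was lower by value (ste4).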

How the data were processed

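The tools HISAT2 and Cuffdiff (versions not given) and the build ASM294v2 are listed in the submitters' processing notes. The authors deposited FPKM, pooled to 1 value for each group and gene per the file headers, and a p-value and q-value per gene from their comparison. Both deposited tables held identical FPKM in all 7092 genes. The sources used here do not give how the authors scaled groups, modelled spread or adjusted p-values. There are no counts, so depth is unknown. With 2 libraries in each group, the p-values measure at most the spread between those, which may be technical.

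From these values, log2(FPKM + 1) differences, medians and counts of calls were computed over all genes with status OK and a mean of at least 1 FPKM (6219 genes). No test of this report's own was possible on pooled values. The differences, scaling and adjustment were tested on simulated data. The 10 genes, the lists by role and the markers were chosen with earlier results of these data known. All 10 genes are named, and from each list the called genes and up to 3 others with the smallest p. The genes ras1, ste6, rst2, pka1, pat1, mei2, cfr1, map1 and mfm1 fall outside that rule and were chosen after their values were seen. Of 87 list names, 4 (ste14, ste16, mat1-Pm and mat1-Pc) had no unique match, and 74 distinct genes were matched.

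Sequences and gene models came from RefSeq ASM294v3. The interval that the authors' deposited table gives for each of the 10 genes was identical to its annotated 3′ untranslated stretch there, and 98.8% of 6746 genes had their interval inside their ASM294v3 model. Computation used pandas 2.3.3, numpy 2.4.6 and Python 3.11.15, and plots used matplotlib 3.10.9. The alternatives tried were other pseudocounts, filters, thresholds and scalings, and leaving out genes that share a locus.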

Additional observations from a re-analysis of the deposited data

How the results depend on the processing

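No paired analysis was possible because each group has a single pooled value, and for the same reason limma and leaving out libraries were not run. Of the 10 genes, 1 was called higher and 0 lower, and these counts were the same at q under 0.01, without a filter, with a mean of at least 10 FPKM and without genes that share a locus. At an unadjusted p under 0.05 they were 2 and 1, and adjusted over the genes tested here 2 and 0, the added gene being ste11. The pathway lists had 1 gene called higher and 0 lower, which became 4 and 2 at an unadjusted p under 0.05. At that threshold 6.8% of all tested genes were higher and 4.04% lower. The median difference of the 10 genes (-0.086) was 0.034 with median-of-ratios scaling, -0.68 with equal FPKM totals, 0.13 when centred on tested protein-coding genes and 1.88 without genes that share a locus, which leaves 2 genes. Apart from the looser threshold, the shifts the scalings make by construction and the smaller number of genes, the cause was not tested. The difference of ste7 ran from 1.38 to 2.21 and that of ste11 from 1.15 to 1.98 over the pseudocounts and scalings tried, and that of ste4 from -2.02 to -1.17. By value, 2 genes changed sign with median-of-ratios scaling, 1 with equal totals, 3 when centred and 0 with pseudocounts of 0.1 and 5. Depth is unknown, which limits the reading of fus1 and rep1, the weakest of the 10.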

Other observations

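Promoters with the CRE core, the element that Atf1 and Pcr1 bind, were counted beside those with the TR box. Of 296 tested genes whose window held it, 14 were called higher and 0 lower in the authors' deposited table, or 4.73% called higher, and the median log2 difference was 0.090. Over all 4965 tested genes with a window, 1.71% were called higher and the median was -0.22. The difference was not tested. Of the 10 genes byr2 alone had a CRE core in its window, and its log2 difference was -0.45. The windows of ste7 and ste11 held none.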
